A study of Mus musculus with 4 samples.

Results

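The subject here is the linker and core histone genes, measured in cerebellar RNA of male mice (C57BL/6N, 10 weeks old). Members were taken by gene symbol, as every probe set annotated to an H1, H2A, H2B, H3 or H4 gene or to the variants H2A.Z, H2A.X, H2A.J and H3.3, with 1 probe set per gene. This gave 63 of the 19505 genes named on the array's 22206 probe sets, and no member had more than 1 probe set, so the rule of taking the brightest one was never used. The differences of 2 members, H4c3 and H1f3, were known when the family was proposed, so all differences between the groups are given here as descriptions and support no conclusion. Of 75 protein-coding genes with such symbols in the RefSeq table, 12 had no named probe set and were not analysed here, among them H1f0 and H1f4.

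The series holds 4 Affymetrix whole-transcript arrays, 1 per sample. The vehicle group (replicates 7 and 9) received vehicle by mouth for 4 days. The clothianidin group (replicates 6 and 7) received 50 mg per kg per day of clothianidin, a neonicotinoid insecticide, over the same 4 days, and both groups ran on a rotarod, a rotating rod that tests motor coordination, before the brains were taken. Nothing in the labels goes beyond calling them separate samples, and any p-value therefore measures only the spread between them, which may be technical. Amplification was by a whole-transcript kit, whose random primers do not need a poly(A) tail. Values are log2 summaries from RMA, a method that combines the probes of a probe set into 1 value per array, and a difference is the clothianidin mean minus the vehicle mean on that scale.

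Histones package DNA into nucleosomes, in which pairs of H2A, H2B, H3 and H4 form a core and a linker histone of the H1 family binds where DNA enters and leaves. Most histone genes lie in clusters, are transcribed in S phase and give messages that end in a stem-loop in place of a poly(A) tail. The replacement variants, such as H3.3 and H2A.Z, lie outside the clusters, are made throughout the cell cycle and have polyadenylated messages, and in neurons, which no longer divide, they build up in chromatin with age. By symbol, 54 members were replication-dependent cluster genes and 9 were replacement genes. Whether each of the 9, H2ax among them, gives only polyadenylated messages was not checked. The cluster genes were 11 H4, 10 H3, 13 H2A, 15 H2B and 5 H1 genes, of which 46 lie on chromosome 13 and 8 on chromosome 3.

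The sequences below are the 180 bases before the start site of 6 members, 4 cluster genes lower with clothianidin and 2 replacement genes higher with it, shown because the results turn on these genes. They come from RefSeq on GRCm38.p6, which held promoters for 57 of the 63 members. Capitals mark matches on either strand to the TATA box (TATAAA), the CCAAT box (CCAAT), the octamer (ATTTGCAT), the H1 box (AAACACA), the cAMP response element (TGACGTCA) and GGTCCG, a string picked after the H4 promoters had been read. H4c3 is at chr13:23698459-23698638 and H4c18 at chr13:21832198-21832377, both on the minus strand. H1f3 is at chr13:23554852-23555031 on the plus strand and H2ac6 at chr13:23683960-23684139 on the minus strand. The replacement genes are H3f3a, at chr1:180813606-180813785 on the minus strand, and H2az1, at chr3:137864307-137864486 on the plus strand.
H4c3: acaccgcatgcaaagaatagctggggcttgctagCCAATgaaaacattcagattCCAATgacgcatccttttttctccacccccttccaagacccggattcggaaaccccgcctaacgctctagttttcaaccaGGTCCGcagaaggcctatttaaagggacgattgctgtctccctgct
H4c18: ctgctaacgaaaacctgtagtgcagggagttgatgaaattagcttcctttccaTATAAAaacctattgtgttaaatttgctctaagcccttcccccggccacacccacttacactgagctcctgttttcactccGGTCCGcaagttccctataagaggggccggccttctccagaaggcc
H1f3: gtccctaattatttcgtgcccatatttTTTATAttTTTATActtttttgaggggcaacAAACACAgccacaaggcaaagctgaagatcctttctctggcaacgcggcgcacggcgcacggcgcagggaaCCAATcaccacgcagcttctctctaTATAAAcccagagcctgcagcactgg
H2ac6: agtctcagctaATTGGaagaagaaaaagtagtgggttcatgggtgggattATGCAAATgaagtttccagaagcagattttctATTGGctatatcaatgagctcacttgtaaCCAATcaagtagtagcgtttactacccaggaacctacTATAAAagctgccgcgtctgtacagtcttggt
H3f3a: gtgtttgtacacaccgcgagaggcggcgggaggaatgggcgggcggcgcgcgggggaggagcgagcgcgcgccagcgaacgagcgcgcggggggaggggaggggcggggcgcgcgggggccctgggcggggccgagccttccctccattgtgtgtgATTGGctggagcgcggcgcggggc
H2az1: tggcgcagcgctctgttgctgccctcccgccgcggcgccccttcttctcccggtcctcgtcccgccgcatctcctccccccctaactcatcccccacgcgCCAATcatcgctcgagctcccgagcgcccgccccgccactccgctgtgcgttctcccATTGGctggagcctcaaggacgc

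The cluster promoters shown had a GC content of 41.1% to 50.6%, and those of H3f3a and H2az1 had 78.3% and 71.1%. On its own strand the H1f3 promoter held a TATA box beginning 26 bases before the start, a CCAAT box at 51 and an H1 box at 122. GGTCCG began 46 bases before the start in both H4 promoters. Over 250 bases before the start, the octamer known from H2B promoters was found in 6 of 13 H2B and 6 of 13 H2A promoters, against 1.6% of all 32851 promoters in the table. Neighbouring H2A and H2B genes can share the same promoter bases, so these counts are not independent. The TATA box was found in 24 of 49 cluster promoters and in 1 of 8 replacement promoters, against 12.4% of all promoters. The CCAAT box was in 40 of 49 and 6 of 8, against 33.8%, and in 13 of 13 H2A, 13 of 13 H2B and 5 of 5 H1 cluster promoters but 3 of 10 H4 promoters. The H1 box was in 4 of 5 H1 cluster promoters (6.25% of all promoters) and the cAMP response element in 4 of 49 cluster promoters (1.55%). GGTCCG was in 7 of 10 H4 promoters (6.72%), but it was picked from those promoters, so that share is no independent finding. A match is only a run of letters and says nothing of whether a factor was bound.

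Array medians were 6.49 to 6.54, and Pearson's r across probe sets was 0.987 and 0.989 within groups and 0.986 to 0.989 between them. The tissue label was checked with cerebellar markers: the Purkinje cell gene Pcp2 was at 16.10 to 17.18 and the granule cell gene Gabra6 at 17.05 to 17.41 on the 4 arrays. Of the members, 56 were at or above the median level of all probe sets (6.5) and 61 at or above the 25th percentile. H1f6, H1f7, H1f8 and H3c1 lay at or below 5.53, the 95th percentile of 1091 olfactory receptor probe sets, and were not shown to be above background.

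The medians of replication-dependent and replacement genes lay on opposite sides of 0. The median log2 difference was -0.18 over the 54 cluster genes and 0.26 over the 9 replacement genes, beside -0.01 over all probe sets and 0.07 over the brighter ones, those whose mean is not below the overall median. The cluster median was -0.34 without vehicle replicate 9. The replacement median is the value of H1f7, which was not shown to be above background, and it was 0.52 over the replacement genes at or above the median level and 0.46 without clothianidin replicate 7. Cluster genes were lower with clothianidin in 40 of 54 cases, where 51.2% of all probe sets and 41% of the brighter ones were lower. Replacement genes were higher in 6 of 9 cases, where 48.1% of all probe sets and 58.4% of the brighter ones were higher. Groups did not overlap, on the lower side, for 18 cluster genes and 1 replacement gene (15.5% of all probe sets, 9.84% of the brighter ones). On the higher side they did not overlap for 0 cluster genes and 4 replacement genes (15.1% of all probe sets, 20.9% of the brighter ones). At least 1.5-fold apart (0.585 on the log2 scale) with no overlap were 6 cluster genes and 1 replacement gene on the lower side (3.57% of all probe sets, 2.06% of the brighter ones). On the higher side these were 0 cluster genes and 3 replacement genes (4.04% and 6.26%). H4c3 and H1f3, whose differences were known when the family was proposed, are among the lower cluster genes in each of these counts. In bulk tissue, fewer cells of a type and less RNA per cell cannot be told apart.

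No probe set of the series passed an adjusted p of 0.05 in limma with Benjamini-Hochberg adjustment, so 0 of 63 members did (0% of all probe sets). Before adjustment, 5 lower and 2 higher members had a limma p below 0.05, where 1.93% of all probe sets were lower and 2.3% higher. The 5 lower ones include H4c3 and H1f3, whose differences were known beforehand. On simulated data for this comparison, a log2 change of 1 was recovered in 0% of probe sets given one, so differences of the sizes seen here were not detectable with these 4 arrays.

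**Figure D1:**
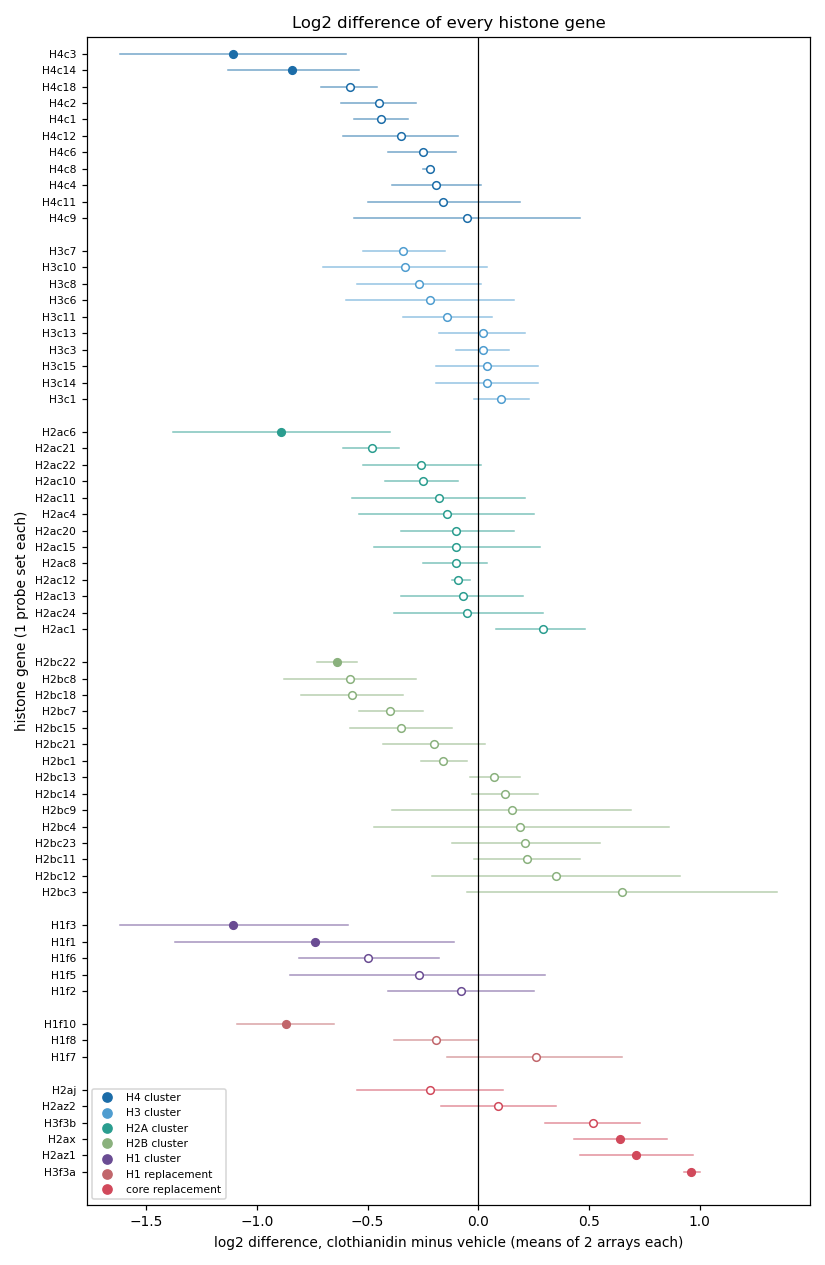
Log2 difference (clothianidin minus vehicle, means of 2 arrays each) of each of the 63 histone genes, grouped by class; filled circles are the 10 genes at least 1.5-fold apart whose groups do not overlap, and lines span the differences with 1 array left out. All 11 H4 genes lie below 0, while H3f3a, H2az1, H2ax and H3f3b lie above it. The line of a gene whose groups do not overlap cannot cross 0.

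H4, the most conserved of the core histones, was encoded by 11 measured genes, and all of them were lower with clothianidin, with a median difference of -0.35 (-0.50 without clothianidin replicate 7) and a range of -1.11 to -0.05. Of the 11, 7 did not overlap between groups (15.5% of all probe sets, 9.84% of the brighter ones), H4c3, known beforehand, among them. Whichever array was left out, 8 stayed lower (22.5% and 15.3%), which genes without overlap always do. H4c3 (probe set TC1300001640.mm.2) read 14.62 and 14.69 in the vehicle samples against 13.04 and 14.05 in the treated ones. Both clothianidin values lay below both vehicle values, and replicate 6 was the lower of them. The difference was -1.11 with a standard error (SE) of 0.37, and it was -0.60 without clothianidin replicate 6.

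H4c14, an H4 gene of the chromosome 3 cluster, read 15.84 and 15.71 in the vehicle samples against 14.64 and 15.23 in the treated ones, a difference of -0.84 (SE 0.30). Here too the groups did not overlap and clothianidin replicate 6 was lowest, and without it the difference was -0.54. H4c18 was at 14.77 and 14.52 against 14.04 and 14.09, a difference of -0.58 (SE 0.27) just short of 1.5-fold. H4c2 and H4c1 had -0.45 and -0.44, and their groups did not overlap either. H4c6 and H4c8 had -0.25 and -0.22, also with no overlap, and H4c12, H4c4 and H4c11 had -0.35, -0.19 and -0.16 with overlap. H4c9 read 9.14 and 9.65 with vehicle and spread on both sides of these values with clothianidin, at 8.83 and 9.86. H4 genes encode the same protein from near-identical coding sequences, so probes can cross-hybridise and the 11 values may not be independent, which was not tested.

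H3, the core histone whose tail carries many of the studied marks, had 10 measured cluster genes with a median difference of -0.06, and their groups overlapped in all 10 cases. The differences ran from -0.34 for H3c7 and -0.33 for H3c10 to 0.10 for H3c1. H3c13 and H3c3 had the smallest differences of the cluster genes, 0.02 and 0.02, and H3c3 read 9.58 and 9.35 in the vehicle samples against 9.61 and 9.37 in the treated ones. H3c14 and H3c15 had identical values on all 4 arrays, 11.26, 10.80, 11.25 and 10.88, so their probe sets gave 1 measurement and not 2. The median of the H3 genes was 0.13 without vehicle replicate 7 and 0.08 without clothianidin replicate 7, so it had no stable sign.

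H2A and H2B form the dimers that flank the central tetramer of the nucleosome. Of 13 H2A cluster genes, 12 were lower, with a median of -0.10 that became 0.04 without vehicle replicate 7. H2ac6 read 7.77 and 8.75 in the vehicle samples against 7.67 and 7.07 in the treated ones, a difference of -0.89 (SE 0.39). Vehicle replicate 9 stood above the other 3 arrays, and the difference was -0.40 without it, -0.59 without clothianidin replicate 7 and -1.38 without vehicle replicate 7. H2ac21 was at 9.97 and 10.22 against 9.63 and 9.60, a difference of -0.48 (SE 0.27) with no overlap. H2ac12 had a small difference of -0.09 whose groups did not overlap, and H2ac1, the testis-type H2A gene, was the only higher one, at 0.29.

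The 15 H2B cluster genes divided into 7 lower and 8 higher, with a median of 0.07 that was below 0, from -0.21 to -0.04, whichever array was left out. H2bc22 read 6.99 and 7.17 in the vehicle samples against 6.41 and 6.47 in the treated ones, a difference of -0.64 (SE 0.27) that ran from -0.73 to -0.55 with 1 array left out. Replicates lay close together in both groups. H2bc8 and H2bc18 had -0.58 (SE 0.30) and -0.57 (SE 0.31) with no overlap, H2bc8 having -0.28 without vehicle replicate 7 and H2bc18 having -0.34 without clothianidin replicate 6. H2bc7 and H2bc15 had -0.40 and -0.35, also with no overlap. The highest cluster gene of the family, H2bc3, read 5.93 and 7.33 in the vehicle samples against 6.99 and 7.56 in the treated ones. Its 0.65 (SE 0.46) came with overlapping groups and was -0.05 without vehicle replicate 7. H2bc12, H2bc11 and H2bc23 had 0.35, 0.22 and 0.21, all with overlap, and H2bc4 was at 11.36 and 12.01 against 11.21 and 12.54.

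Some H2A and H2B genes face away from each other and share the bases between their start sites. Of 7 such pairs within 500 bases, 3 had the same sign. H2ac22 and H2bc22, whose start sites lie 240 bases apart, had -0.26 and -0.64, and H2ac8 and H2bc8 had -0.10 and -0.58. H2ac12 and H2bc12 had -0.09 and 0.35, and H2ac11 and H2bc11 had -0.18 and 0.22. By location, the median difference was -0.18 over the 46 cluster genes of chromosome 13 and -0.15 over the 8 of chromosome 3, and the latter was 0.09 without vehicle replicate 7.

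**Figure D2:**
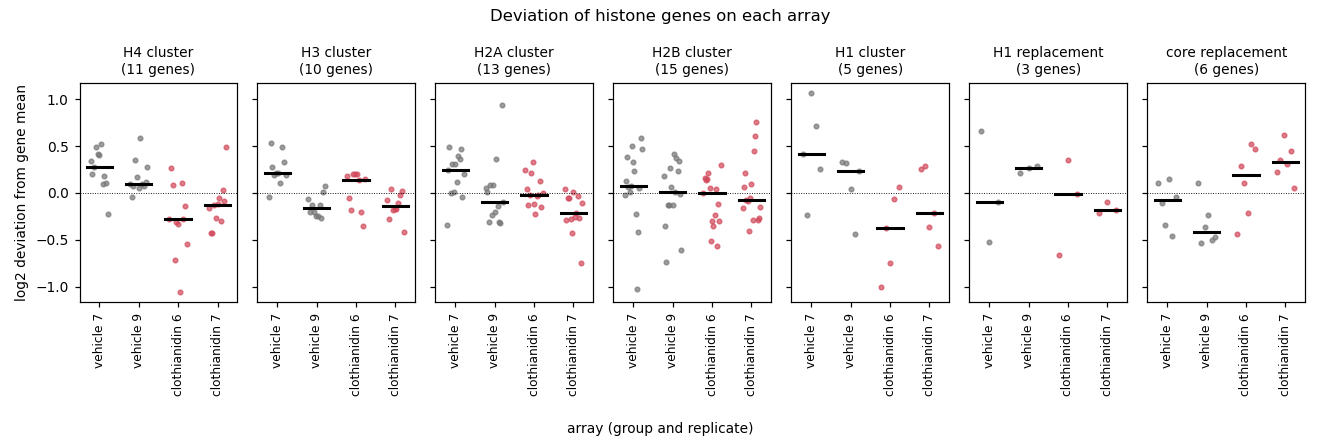
Deviation of each gene's log2 value from its own mean over the 4 arrays, by class and array; points are genes, grey for vehicle and red for clothianidin, and bars are class medians. The H4 medians are 0.28 and 0.10 with vehicle and -0.28 and -0.12 with clothianidin, while the core replacement medians are -0.08 and -0.42 against 0.20 and 0.33.

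By array, the medians of the H4, H1 cluster and core replacement genes were apart by group, and those of the H2B genes only narrowly. The median deviation of the H1 cluster genes from their own means was 0.41 and 0.24 with vehicle and -0.37 and -0.21 with clothianidin. The H3 genes followed another pattern, at 0.21 on vehicle replicate 7 and 0.14 on clothianidin replicate 6 against -0.17 and -0.14 on vehicle replicate 9 and clothianidin replicate 7. The H2A genes were at 0.25, -0.09, -0.02 and -0.22 and the H2B genes at 0.08, 0.01, 0 and -0.08 in the order vehicle 7 and 9, clothianidin 6 and 7. The classes therefore did not share 1 order of the arrays.

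Linker histones of the H1 family bind the nucleosome from outside and compact the chromatin fibre. All 5 measured H1 cluster genes were lower, 3 of them with no overlap (15.5% of all probe sets, 9.84% of the brighter ones). H1f3, known beforehand, is 1 of those 3. The median of the 5 was -0.50 (-0.78 without vehicle replicate 9). It is the value of H1f6, a gene not shown to be above background and also 1 of those 3. H1f3 (probe set TC1300000248.mm.2) read 8.96 and 7.93 in the vehicle samples against 7.15 and 7.53 in the treated ones, a difference of -1.11 (SE 0.38). Vehicle replicate 7 was well above the other 3 arrays, and without it the difference was -0.59. H1f1 read 7.32 and 7.24 in the vehicle samples against 5.91 and 7.17 in the treated ones, a difference of -0.74 (SE 0.41). This rested on clothianidin replicate 6: the difference was -0.11 without it and -1.37 without clothianidin replicate 7.

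H1f6, the testis linker gene, was dim at 4.98 and 4.96 against 4.79 and 4.16. H1f5, at 7.49 and 6.34 against 6.72 and 6.57, and H1f2, at 7.17 and 7.73 against 7.04 and 7.70, overlapped between groups with differences of -0.27 and -0.08. Outside the cluster, H1f10, a linker variant encoded by a polyadenylated message, read 7.93 and 7.48 in the vehicle samples against 6.61 and 7.06 in the treated ones. Its groups did not overlap, and its difference of -0.87 (SE 0.31) ran from -1.09 to -0.65 with 1 array left out. Among replacement genes this linker gene therefore lay on the side of the cluster genes. The germ-cell linker genes were dim, with H1f8 at 3.12 and 3.51 against 3.21 and 3.04 and H1f7 at 4.17 and 4.96 against 5.04 and 4.60.

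The core replacement genes had a median of 0.58 over 6 genes (0.37 without vehicle replicate 9), of which 5 were higher. H3f3a, which encodes the replacement histone H3.3, read 12.05 and 12.01 in the vehicle samples against 13.03 and 12.96 in the treated ones. The spread within each group was at most 0.05 (SD, n = 2) and the groups lay far apart by comparison. The difference was 0.96 (SE 0.27, which in limma also draws on the spread of all probe sets), a 1.95-fold higher level, and it was at least 0.93 with any array left out. H3f3b, another H3.3 gene, was at 14.16 and 13.73 against 14.67 and 14.26, a difference of 0.52 (SE 0.30) with no overlap, which was 0.30 without vehicle replicate 9 and 0.31 without clothianidin replicate 6.

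H2az1, which encodes the H2A.Z variant found beside transcription start sites, read 12.38 and 12.36 in the vehicle samples against 12.83 and 13.34 in the treated ones. Both clothianidin arrays were higher, with a difference of 0.71 (SE 0.29) that was 0.46 without clothianidin replicate 7. H2ax, whose protein is phosphorylated at DNA breaks, was at 9.98 and 9.56 against 10.38 and 10.44, a difference of 0.64 (SE 0.29) with no overlap. H2az2, another H2A.Z gene, was at 9.58 and 9.20 against 9.22 and 9.74, with a difference of 0.09. H2aj was at 8.90 and 8.90 against 8.35 and 9.01, a difference of -0.22 that was 0.11 without clothianidin replicate 6. The groups overlapped in H2az2 and H2aj, and the difference between the H2A.Z genes was not tested.

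**Figure D3:**
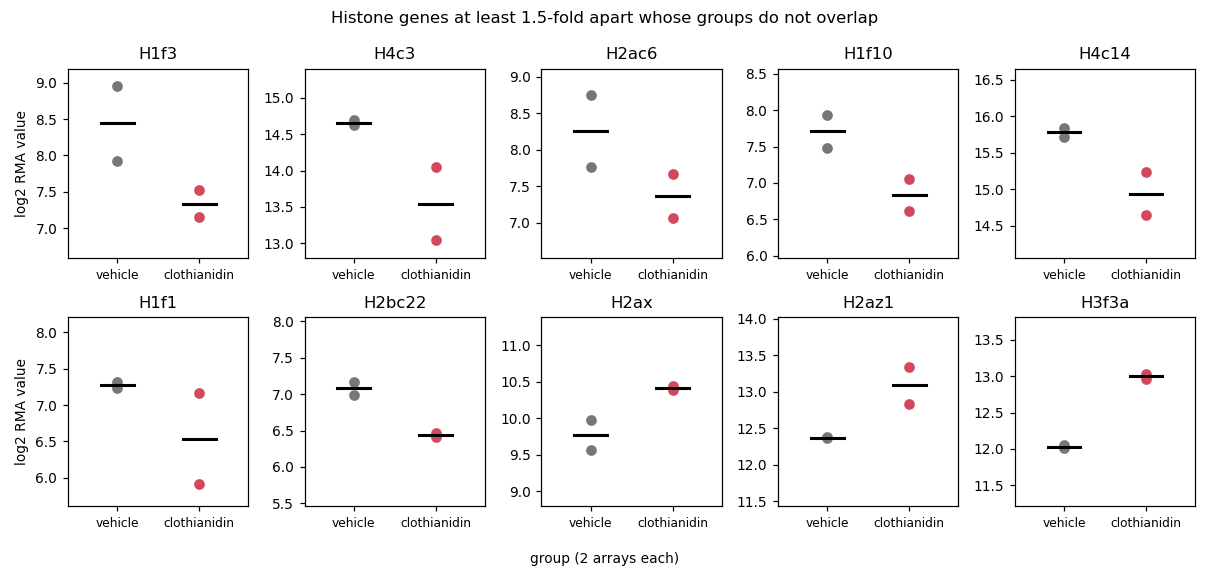
Log2 RMA values of the 10 histone genes at least 1.5-fold apart whose groups do not overlap, with points for single arrays and bars for group means; each panel spans the same number of log2 units around its own mean. H3f3a has the closest replicates, at 12.05 and 12.01 against 13.03 and 12.96, while the clothianidin values of H4c3 and H1f1 lie far apart.

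Genes that supply histone messages were taken as a list, chosen, like all lists here, with earlier results of these data known. Of 21 measured genes, 14 were higher (48.1% of all probe sets, 58.4% of the brighter ones) and 7 lower. Their median was 0.18, and it was 0.06 without clothianidin replicate 6, 0.12 without vehicle replicate 9 and 0.31 without clothianidin replicate 7. At least 1.5-fold higher with no overlap were 2 of 21 (4.04% of all probe sets, 6.26% of the brighter ones), the cyclin gene Ccne1, at 8.54 and 8.80 against 9.11 and 9.44, and Ncbp1, a nuclear cap-binding gene, at 6.54 and 6.60 against 7.12 and 7.35. Npat, the coactivator that Ccne1 with Cdk2 switches on at histone clusters, was at 10.88 and 10.95 against 10.88 and 10.85, with a difference of -0.05. Slbp, whose protein binds the stem-loop of replication-dependent messages, was at 9.98 and 9.63 against 10.42 and 9.84, a difference of 0.32 with overlap. For processing of the message end, the difference was 0.32 for the endonuclease gene Cpsf3, 0.10 for Cpsf2, -0.18 for Lsm10, -0.28 for Lsm11 and -0.21 for the nuclease gene Mblac1. It was -0.13 for Casp8ap2, 0.46 for Yy1 and 0.18 for Ccne2. Zfp473, Cdk2 and E2f1, with -0.19, 0.35 and -0.44, lay below 5.53 on all 4 arrays and were not shown to be above background. For genes of cap binding and message decay it was 0.48 for Srrt, 0.15 for Ncbp2, 0.18 for Ncbp3, 0.49 for Upf1, 0.30 for Tut7 and 0.11 for Eri1.

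Histone chaperone and exchange genes had 16 of 29 higher (48.1% of all probe sets, 58.4% of the brighter ones). Their median was 0.05, which was -0.03 without clothianidin replicate 6 and 0.15 without clothianidin replicate 7. Supt6 and Nap1l2 had 0.62 and 0.66. Of genes for H3.3 deposition, Ubn1, Hira, Cabin1 and Daxx had -0.52, -0.24, -0.08 and -0.40, and Atrx had 0.19. Architectural chromatin genes such as the HMG and HP1 families had 12 of 13 higher (48.1% of all probe sets, 58.4% of the brighter ones). Their median was 0.23, and 6 of 13 were higher with no overlap (15.1% and 20.9%). Among these 6 were Hmgb3, Cbx3 and Ctcf, with 1.05, 0.42 and 0.38 (the dim Hmgb3 was picked after its values were seen). The other histone variant genes had 6 of 8 lower (51.2% of all probe sets, 41% of the brighter ones). Their median was -0.17 (-0.31 without vehicle replicate 7), but most of these are dim germ-cell genes, and Macroh2a1 and Macroh2a2 had 0.11 and 0.04. Genes of S phase, when cluster histones are made, had 12 of 24 higher (48.1% of all probe sets, 58.4% of the brighter ones). Their median was 0.01 (-0.10 without vehicle replicate 9). Most of them lay below the median level of all probe sets, and Gins1, Gins2, Cdc6 and Tk1 were among those below 5.53 on all 4 arrays. Slbp is in both this list and the supply list. Genes of G2 and mitosis had 10 of 19 lower and 8 higher (51.2% and 48.1% of all probe sets). Their median was -0.06 (0.03 without vehicle replicate 9), and none of them was at the median level of all probe sets. Mki67, the usual marker of dividing cells and named for that, had a vehicle mean of 4.63 and a difference of -0.06. No member of these lists passed limma over all probe sets.

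**Figure D4:**
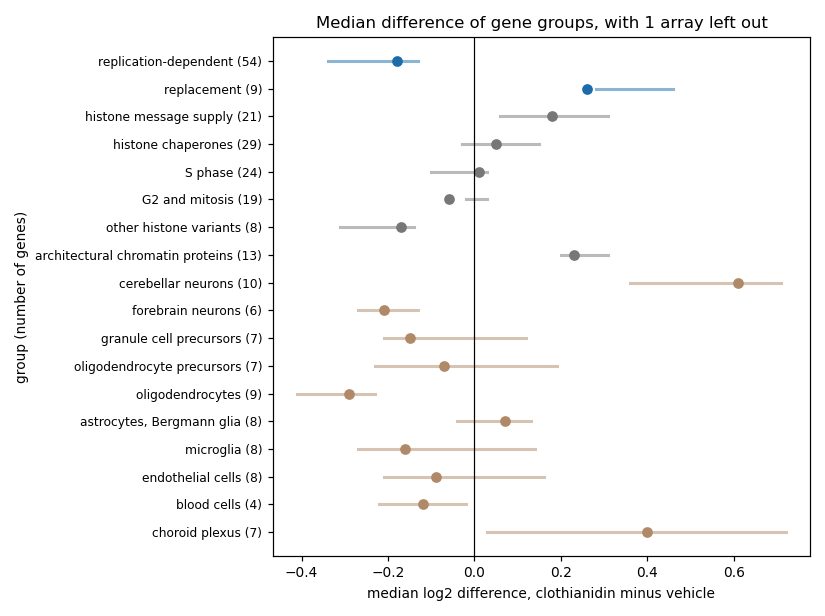
Median log2 difference (clothianidin minus vehicle) of the histone groups, the chromatin and cell cycle lists and the cell type lists, with lines for the range of the median with 1 array left out and the number of genes in brackets. The replication-dependent line stays below 0 (-0.34 to -0.13) and the replacement line above it (0.28 to 0.46), the S phase line crosses 0, and the cerebellar neuron and oligodendrocyte lists lie on opposite sides.

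Marker lists of cell types in the dissected tissue were described in the same way. Cerebellar neuron markers had 7 of 10 higher (48.1% of all probe sets, 58.4% of the brighter ones). Their median was 0.61 (0.36 without clothianidin replicate 7), but they did not move together. Zic2, Fat2, Pcp2, Pcp4 and Calb1 had 0.96, 0.82, 0.68, 0.67 and 0.66. Zic1 and Pvalb had 0.57 and 0.08 with overlap, and the 3 lower ones, Gabra6, Cbln1 and Cbln3, had -0.02, -0.15 and -0.24. The summed level of the list (log2 of the sum over it) was 19.54 to 19.83 with vehicle and 19.98 to 20.06 with clothianidin. Oligodendrocyte markers had 9 of 9 lower (51.2% of all probe sets, 41% of the brighter ones) and a median of -0.29. Mbp was counted among them with a difference of 0.00 after rounding, and 3 of the 9 did not overlap between groups (15.5% and 9.84%). These 3 were Cnp, Fa2h and Mal, with -0.73, -0.54 and -0.50, and Mog had -0.68 with overlap. The summed level of this list was 17.63 to 17.86 with vehicle and 17.43 to 17.80 with clothianidin. Choroid plexus markers had 5 of 7 higher (48.1% of all probe sets, 58.4% of the brighter ones). Their median was 0.40, which was 0.03 without vehicle replicate 9, 0.23 without clothianidin replicate 7 and 0.72 without vehicle replicate 7. Their summed level was 9.62 to 10.01 with vehicle and 9.96 to 14.06 with clothianidin, where clothianidin replicate 7 carried the high value. Most of that value was Ttr, at 13.96 on this array against 5.70 and 5.67 with vehicle and 6.38 on clothianidin replicate 6. Kcnj13 and Folr1 were also highest on clothianidin replicate 7, at 8.92 and 6.05, while Clic6, Otx2, Aqp1 and Kl were not. Median differences were -0.21 over 6 forebrain, -0.15 over 7 granule precursor, -0.07 over 7 oligodendrocyte precursor, 0.07 over 8 astrocyte, -0.16 over 8 microglia, -0.09 over 8 endothelial and -0.12 over 4 blood cell markers. With 1 array left out, the sign turned for 5 of these: granule precursor (0.12 without clothianidin replicate 6, 0.02 without vehicle replicate 9), oligodendrocyte precursor (0.19 without vehicle replicate 7, 0.09 without clothianidin replicate 7), microglia (0.09 and 0.14 without the same arrays), endothelial (0.16 without vehicle replicate 7) and astrocyte (-0.04 without clothianidin replicate 6). The forebrain median was -0.13 without vehicle replicate 7, and the blood cell median ranged from -0.22 without vehicle replicate 7 to -0.02 without clothianidin replicate 6. RMA values have no 0, so none of these markers can be given as absent. The part of cell composition in the histone differences was not tested.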

How the data were processed

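Total RNA from 4 cerebellum samples was hybridised to Affymetrix whole-transcript arrays, per the labels' protocols. The deposited log2 values, given to 2 decimals, came from RMA, run by the authors according to the submitters' processing notes; the version of RMA was not given in the sources used here, and base 2 is taken from RMA's scale. Scanner signals were not used, so signal over background is unknown, and the number of arrays limits the precision. Probe sets were named from the platform annotation, and matching by gene identifier to RefSeq changed 0 symbols; 2634 probe sets had no name.

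Groups were compared with limma 3.58.1 in R 4.3.3 (lmFit, eBayes) on all 22206 probe sets. Members and lists were chosen with earlier results of these data known. The rule named all linker and replacement genes, cluster genes at least 1.5-fold apart without overlap, the 5 with the largest difference each way, the 3 with the smallest, all measured supply genes, and from other lists up to 2 bright genes each way. Not all genes that the rule picked from the other lists are given above, and further genes were named after their values were seen. On simulated data for clothianidin against vehicle, with 200 of 22206 probe sets changed, a log2 change of 1 was recovered in 0%, one of 2 in 64.7% and one of 3 in 97%. Alternatives were median centring, quantile normalization, level filters, other fold thresholds, another prior, other member sets, and leaving out each array.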

Additional observations from a re-analysis of the deposited data

How the results depend on the processing

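No paired analysis was possible because the 2 groups share only 1 replicate number. With 1 array left out, limma calls over all probe sets numbered 0 to 1, the 1 being Ttr, no histone gene, without clothianidin replicate 6; a lone array was assumed to vary like the other group. Lower members at 1.5-fold without overlap numbered 7 to 12 (12 without vehicle replicate 9) and higher ones 3 to 6 (6 without vehicle replicate 7, 5 without clothianidin replicate 6), since fewer arrays overlap less. At a log2 threshold of 0.32 there were 16 lower, and at 2-fold 2 lower and 0 higher. Shares over all probe sets were not worked out at these thresholds or with 1 array left out. These counts alone therefore say nothing about the members. The replication-dependent median was -0.34 to -0.13, with -0.34 without vehicle replicate 9, and the replacement median 0.28 to 0.46. The replacement median was 0.37 after quantile normalization, 0.52 and 0.39 with level filters at the median and 25th percentile, which take out dim linker genes, and 0.58 for the core replacement genes alone, a choice made after seeing the data. The cause was not tested. The H2A median ranged from -0.36 to 0.04, the H2B median, 0.07 with all arrays, turned to -0.21 to -0.04 (without vehicle replicate 7 -0.05, without clothianidin replicate 7 -0.12) and the H3 median from -0.26 to 0.13 (0.08 without clothianidin replicate 7). The share of all probe sets that change sign was not worked out either, so the next count is a description only. Of the 63 members, 34 changed sign with 1 array left out. The 10 at 1.5-fold without overlap could not, because groups that do not overlap keep their sign whichever array is left out. Of these 10, 6 had a difference that moved over 1.5 times with 1 array left out.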
